A study of Homo sapiens with 6 samples.

Results

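The genes described here encode the subunits of the proteasome and the proteins that assemble, activate or inhibit it. They were taken as every row of the deposited gene table with a symbol made of PSMA, PSMB, PSMC, PSMD, PSME, PSMF or PSMG and a number, which gave 47 rows of the 74852 listed, of which 23187 carry a symbol. The cells were MDA-MB-231, a human triple-negative breast cancer line with a mesenchymal phenotype, transfected with a pool of control siRNAs (si-CTRL) or a pool of siRNAs against the mitotic kinase NEK2 (si-NEK2). Both groups received 2 transfections, and the sample records give the harvest as 24 h after the second one, while the methods of the study state another time. PolyA-enriched RNA of 3 libraries per group was sequenced. Both groups carry siRNA, no untransfected cells are among the 6 libraries, and 1 line with 1 pool per group was used, so that an effect of the pool other than NEK2 silencing cannot be told apart here. Other sample records are cited in the records of si-CTRL but not of si-NEK2, and the sources used here do not state whether the libraries were made together, so that a batch and the group cannot be told apart. The comparison addresses which transcripts differed between cells given the si-NEK2 pool and cells given the si-CTRL pool.

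The proteasome degrades proteins tagged with ubiquitin. Its 20S core is a barrel of outer alpha rings, which form the gate, and inner beta rings, of which the subunits encoded by PSMB5, PSMB6 and PSMB7 carry the constitutive proteolytic sites. The 19S regulatory particle, made of a base with ATPases and a lid with a deubiquitinase, binds, unfolds and feeds the substrate into the core. In cells exposed to interferon gamma the inducible subunits PSMB8, PSMB9 and PSMB10 take the place of PSMB5, PSMB6 and PSMB7 and form the immunoproteasome, known for its role in making peptides for antigen presentation. When proteasomes are blocked, the transcription factor NFE2L1 (NRF1) is known to raise many subunit genes together through antioxidant response elements.

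The values are normalized counts, that is the read number of a gene after division by the size factor that DESeq2 gave each library. The reads recovered from them ranged from 52625492 to 87454509 per library, and a tested member had between 535 and 137976 reads in a library. The replicates were described as a triplicate, with no statement that they were separate cultures, and the p-values measure the spread between these libraries. NEK2 had 3702, 3323 and 3290 normalized counts in si-CTRL replicates 1 to 3 and 284, 362 and 388 in si-NEK2 replicates 1 to 3. Its level therefore lay far apart between the groups (log2 fold change -3.32, standard error 0.12, limma adjusted p = 1.86e-06). The label of the line was checked against markers: vimentin (VIM) was abundant, while the hormone receptors ESR1 and PGR and the epithelial cadherin CDH1 were at or near 0. ERBB2, on a row shared with MIR4728, was not absent, with 2822 ± 544 normalized counts in si-CTRL and 4020 ± 80.8 in si-NEK2 (SD, n = 3). The leukocyte markers PTPRC, CD3E, CD14 and LYZ, chosen because leukocytes use the inducible subunits, stayed at no more than 25.4 normalized counts in any library. As in any bulk sample, fewer cells that express a gene and less RNA per cell cannot be told apart.

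The promoters of members were searched for letters of elements that are known to drive proteasome genes, since the constitutive and inducible members are known for different elements. Promoter sequences came from RefSeq (GRCh38.p14, from 250 bases before to 50 after the annotated start), and 41 of 47 members had an entry, with 49 promoters. PSMA7, PSMB1, PSMB6, PSMB7, PSMD4 and PSMG3 had none. The core of the interferon-stimulated response element, searched on both strands as GAAA, any 2 bases and GAAA again, was present in 14.29% of the member promoters and in 3.57% of all 35116 promoters. It was found for 7 members, PSMA4, PSMB4, PSMB8, PSMB10, PSME1, PSME2 and PSMG4. The windows of the inducible catalytic subunits and of the interferon-inducible activator pair are shown with the match in capitals, each read 5′ to 3′ on the strand that holds the match:
PSMB8, chr6:32844033-32844060, gene on the minus strand: ggaggaagtGAAAGCGAAAgccacagat
PSMB10, chr16:67936853-67936880, gene on the minus strand: ggtaaaggcGAAAGCGAAAgcaggaagt
PSME1, chr14:24136190-24136217, gene on the plus strand: ccgcgaaggGAAAGCGAAAgcggtaggg
PSME2, chr14:24146620-24146647, gene on the minus strand: ctggggagtGAAAGCGAAAgcccgggcg
In all 4 windows the match reads GAAAGCGAAA, as does the match of PSMG4. The promoter entry of PSMB9 held no match in this window.

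The core of the antioxidant response element, searched as TGACNNNGC on both strands, was present in 30.61% of the member promoters and in 13.35% of all promoters. It was found for 15 members, and windows are shown for a member of the alpha ring, a member of the beta ring, the activator that rose most and the assembly chaperone that fell:
PSMA4, chr15:78540651-78540677, gene on the plus strand: tgggcacgaTGACTCTGCaccgcctcc
PSMB3, chr17:38752628-38752654, gene on the plus strand: cctccgtttTGACTTTGCaaccaaact
PSME4, chr2:53971010-53971036, gene on the minus strand: ctctgctggTGACGCTGCagccgccgg
PSMD9, chr12:121888679-121888705, gene on the plus strand: ggcttccggTGACCCAGCtccgcccta
The CCAAT box, searched as CCAAT on both strands, was present in 40.82% of the member promoters and in 34.61% of all promoters. A match of such short letters is a description and not a site of binding, and the search for one motif did not exclude overlap with another.

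Most proteasome genes were somewhat higher in si-NEK2 cells, by a small amount. Of the 47 members, 45 reached a mean of 10 normalized counts and were tested among 18717 rows with limma on log2(value + 1). With p-values adjusted over all rows (Benjamini-Hochberg) and a threshold of 0.05, 25 members rose, 2 fell (PSMD9 and PSME3) and 18 were not called. Among all rows tested 21.8% rose and 21.3% fell, and among the 8539 rows with a mean at least that of the lowest tested member 34.7% rose and 19.1% fell. The median log2 fold change was 0.30 over the members (1.23-fold), 0.01 over all rows and 0.11 over the rows of at least that level. The members lay between -0.51 and 0.82, and 38 of 45 were above 0. Of all 18717 rows 9548 were above 0, and of the 8539 rows of at least that level 5309 were. The thresholds of the study, an unadjusted p-value up to 0.05 with a fold change from 1.5 on, were passed by 2 members, PSMA2 and PSME4, both higher, where 22.5% of all rows passed (8.23% higher and 14.3% lower). The groups did not overlap in 31 members with si-NEK2 higher and in 3 with si-NEK2 lower, where 28.2% and 26.9% of all rows separated in this way. Among the 8539 rows of at least the lowest member's level, 3569 separated with si-NEK2 higher and 1979 with si-NEK2 lower. The thresholds of the study were passed by 674 of these rows with si-NEK2 higher and 642 with si-NEK2 lower.

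**Figure D1:**
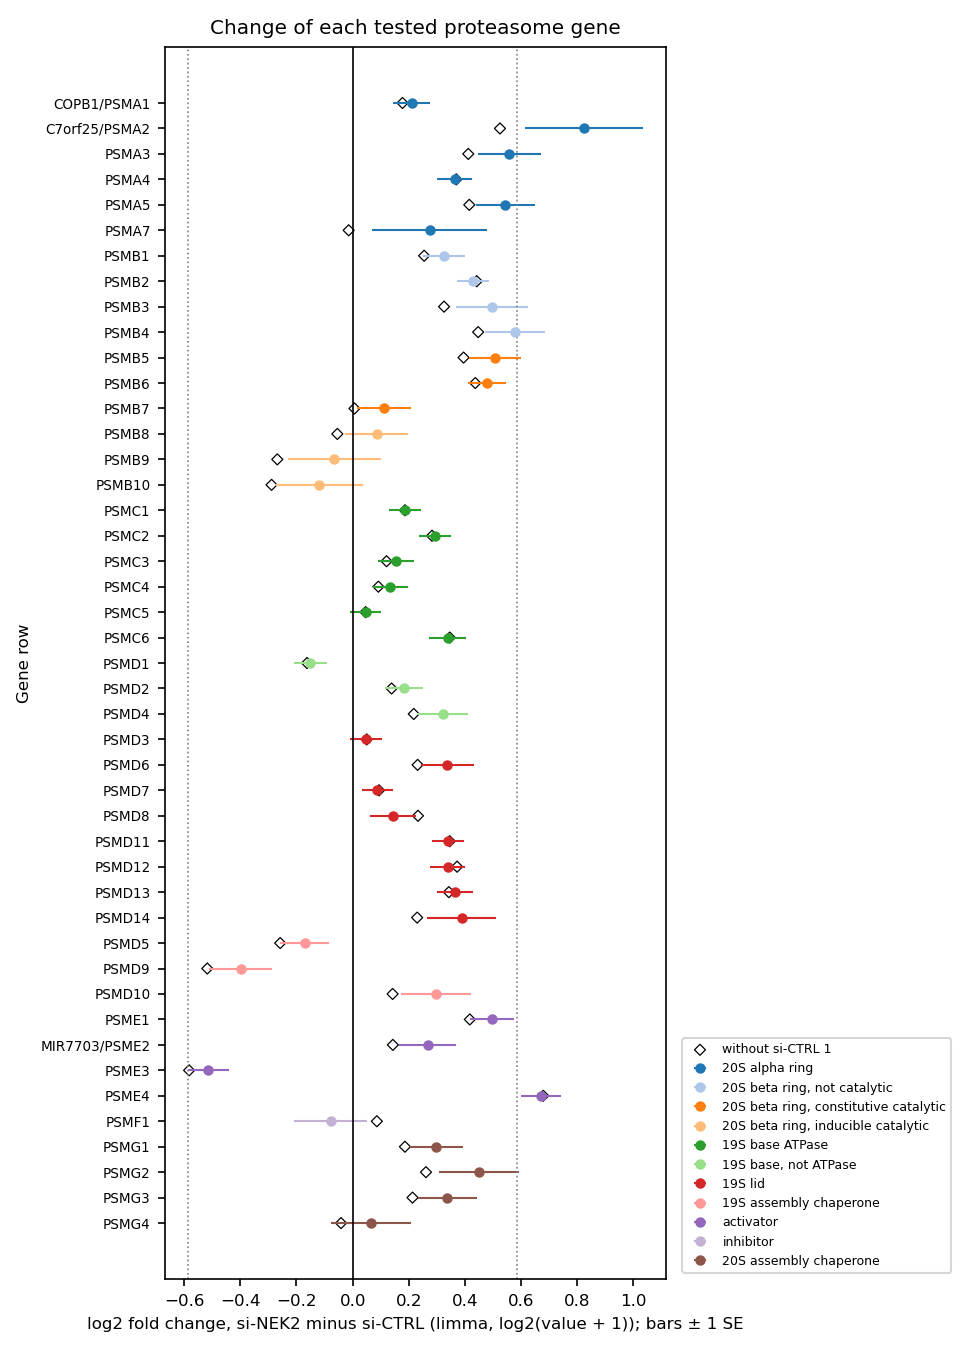
Log2 fold change (si-NEK2 minus si-CTRL, on log2(value + 1)) of the 45 tested members, coloured by role, with 1 standard error as bars, open diamonds for the value without si-CTRL replicate 1 and dotted lines at a fold change of 1.5. PSMA2 lies highest at 0.82 and PSME3 lowest at -0.51. Under the scaling of the authors 25 members are called higher, against 14 to 18 under 3 other scalings. Of all rows 21.8% are called higher under the first and 13.8% to 21.1% under the others.

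The size of the rise depended on how libraries were scaled. With libraries brought to the upper quartile, to an equal total or to the same quantiles, 18, 15 and 14 members rose and 3, 4 and 3 fell. The median log2 fold change of members was then 0.23, 0.17 and 0.18. Equal totals moved the median of all rows to -0.11, so that the members lay 0.28 above it, against 0.29 in the scaling of the authors. Quantile normalization gave a median of 0.046 over all rows, the members lay 0.14 above it, and 29 of 45 were above it in place of 38. Over all rows, equal totals gave 2580 higher and 5262 lower calls in place of 4082 and 3981. A share of reads does not depend on the authors' size factors, but it amounts to the scaling to equal totals and is not a separate check. The members together took 0.840%, 0.949% and 0.954% of the reads of si-CTRL replicates 1 to 3 and 0.987%, 0.997% and 1.01% of those of si-NEK2 replicates 1 to 3. The groups did not overlap in this share, and si-CTRL replicate 1 was lowest. In the fit with the authors' scaling and all 17 alternatives, 14 members were called higher: PSMA2, PSMA3, PSMA4, PSMA5, PSMB2, PSMB4, PSMB5, PSMB6, PSMC6, PSMD11, PSMD12, PSMD13, PSME1 and PSME4. PSME3 was called lower in all of them. The share of all rows called in every one of these fits was not computed.

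One control library stood apart for these genes. In 33 of 45 members si-CTRL replicate 1 was the lowest of the si-CTRL libraries, and the median log2 difference from the mean of the other si-CTRL libraries was -0.24, while the median of all rows tested was close to 0. The difference was largest for PSMA2 (-0.90) and PSMA7 (-0.87), and 21 members were lower by over 0.3. The median coefficient of variation of members was 11.1% in si-CTRL and 3.06% in si-NEK2. Transcript length moved with this difference: over the 45 members Spearman's rho between the length of the principal GENCODE transcript and the difference was 0.588, and over 12032 matched rows it was 0.165, where all points share the same libraries and genes are not independent replicates. Among rows of up to 1000 bases the median difference was -0.24, and among the 10 members of that length it was -0.36. In the bin of 3000 to 5000 bases, which also holds 10 members, these medians were 0.050 and -0.018. The members are short, with a median of 1579 bases against 3231 over the matched rows, and the part of length or RNA quality in the result was not tested. Without si-CTRL replicate 1, 28 members rose and 6 fell: all 25 remained, PSMD2, PSMD8 and PSME2 were added to the higher ones, and PSMB9, PSMB10, PSMD1 and PSMD5 to the lower ones. Calls over all rows went up too in that fit, to 26.7% higher and 23.2% lower. The median log2 fold change was then 0.21, and 1 member, PSME4, stayed past both thresholds of the study. For members that moved most with this library, values are given with and without it.

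**Figure D2:**
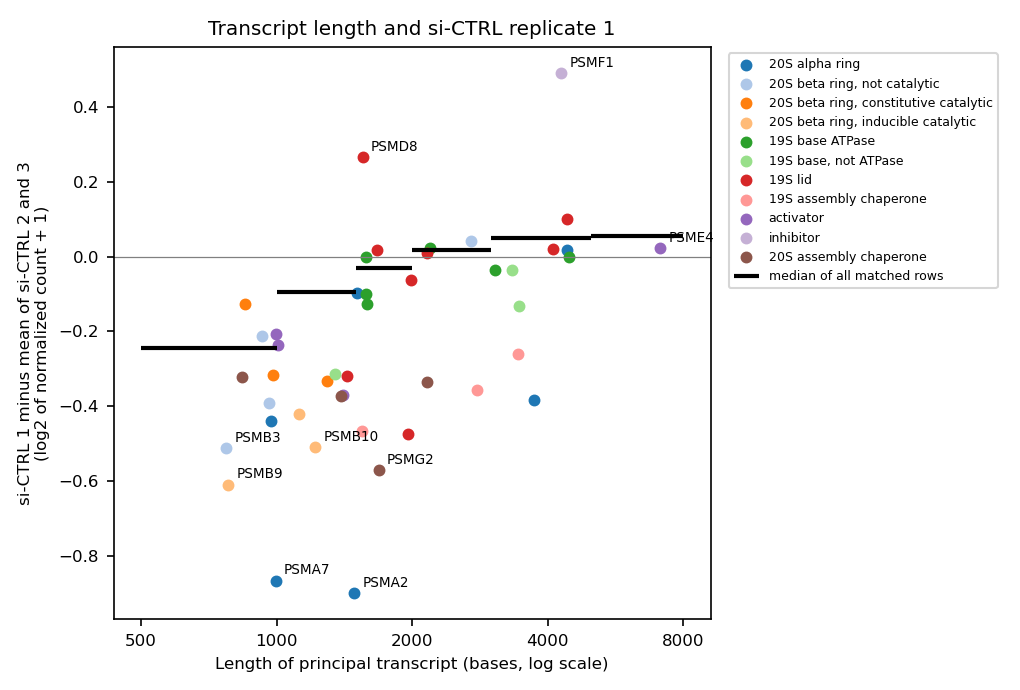
Difference of si-CTRL replicate 1 from the mean of si-CTRL replicates 2 and 3 (log2, y axis) against the length of the principal transcript (bases, log axis) for the 45 tested members, coloured by role, with medians of all matched rows in each length bin as horizontal lines. Short members such as PSMA7 (-0.87) lie low, while the longest, PSME4, lies near 0 and PSMF1 lies highest.

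**Figure D3:**
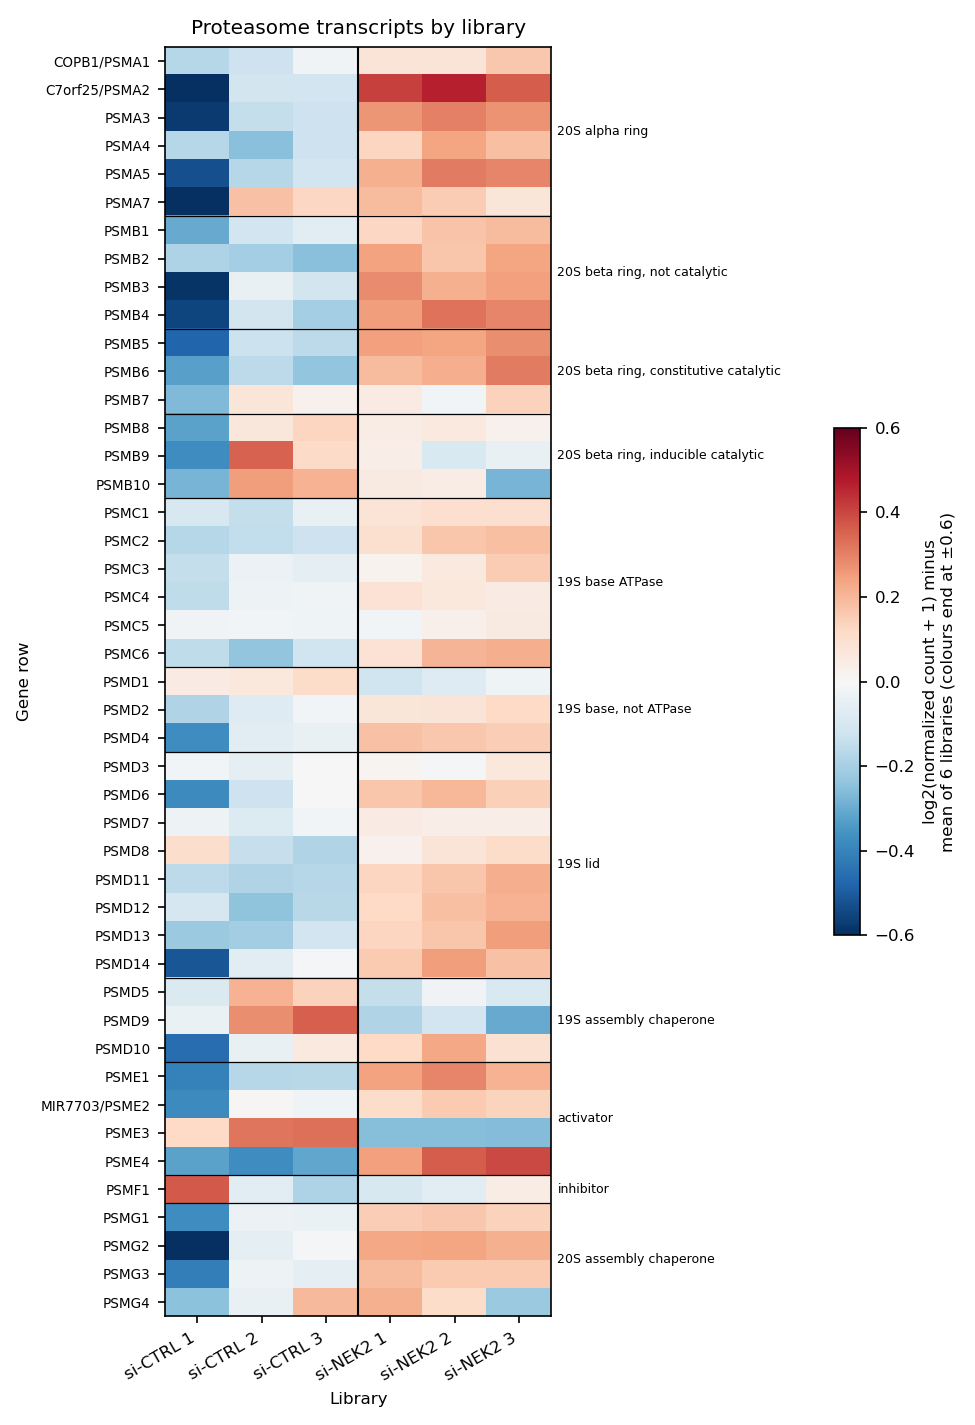
Log2 level of each of the 45 tested members in each of the 6 libraries, relative to the mean of the member over the 6 libraries, with colours saturating at 0.6 in either direction. The column of si-CTRL replicate 1 is low for most members (median -0.27), and the columns of si-NEK2 have medians between 0.12 and 0.16.

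Most genes of the 20S core, other than the inducible subunits, rose. Of these 13 tested genes, 11 were called higher, none fell, and the median log2 fold change was 0.48. Under the upper quartile, equal total and quantile scalings 10, 8 and 8 of them rose, where 17.5%, 13.8% and 21.1% of all rows rose. For these scalings the shares among rows with a mean at least that of the lowest tested member were not computed. Without si-CTRL replicate 1 the median of the 13 genes was 0.40. Among the alpha subunits, which form the outer rings, 5 of 6 tested rose (median 0.45). No row carries the symbol PSMA6, which was not analysed here, and PSMA8, known from testis, was listed at 0 in every library, which allows up to 3 reads each.

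PSMA2 had the largest change of all members. Its row (chromosome 7 from 42948874 to 42971805, hg19) is shared with C7orf25, so that its reads are uncertain. It had 6163, 11509 and 11496 normalized counts in si-CTRL replicates 1 to 3 and 16526, 17164 and 15979 in si-NEK2 replicates 1 to 3. Every si-NEK2 library was above every si-CTRL library, but si-CTRL replicate 1 was by far the lowest (log2 fold change 0.82, standard error 0.21, limma adjusted p = 0.0126). Without that library the log2 fold change was 0.52. PSMA3 (chromosome 14 from 58711523 to 58738727, hg19) had 13548, 18259 and 18487 normalized counts in si-CTRL replicates 1 to 3 and 24219, 24816 and 24300 in si-NEK2 replicates 1 to 3. The groups did not overlap (log2 fold change 0.56, standard error 0.11, limma adjusted p = 0.00419, and 0.41 without si-CTRL replicate 1), and an overlapping row that holds the antisense gene PSMA3-AS1 had 39.0% of the mean of PSMA3. PSMA5 (chromosome 1 from 109941655 to 109969108, hg19) had 6273, 8023 and 8357 normalized counts in si-CTRL replicates 1 to 3 and 10487, 11222 and 11071 in si-NEK2 replicates 1 to 3. It rose from 7551 ± 1120 to 10927 ± 388 (SD, n = 3), with log2 fold change 0.54, standard error 0.11, limma adjusted p = 0.00332 and 0.42 without si-CTRL replicate 1. PSMA4 rose with a log2 fold change of 0.36 (limma adjusted p = 0.00185) and PSMA1, on a row shared with COPB1, with 0.21 (0.0281). PSMA1 lost its call in 10 of 17 alternatives, among them the 3 other scalings, with values down to 0.060. PSMA7 was not called at 0.27 (limma adjusted p = 0.313), and without si-CTRL replicate 1, where it had 15280 against 28357 and 27379 normalized counts in the other si-CTRL libraries, the value was -0.014.

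All 4 beta subunits without a proteolytic site rose, with a median of 0.46. PSMB4 (chromosome 1 from 151372039 to 151374412, hg19) had 10672, 14457 and 13551 normalized counts in si-CTRL replicates 1 to 3 and 18601, 19548 and 19111 in si-NEK2 replicates 1 to 3. The groups did not overlap (log2 fold change 0.58, standard error 0.11, limma adjusted p = 0.00253, and 0.45 without si-CTRL replicate 1). PSMB3 (chromosome 17 from 36908966 to 36920484, hg19) had 7656, 11184 and 10659 normalized counts in si-CTRL replicates 1 to 3 and 14040, 13336 and 13681 in si-NEK2 replicates 1 to 3. Its rise (log2 fold change 0.50, standard error 0.13, limma adjusted p = 0.0135) was smaller without si-CTRL replicate 1, at 0.33, and lost its call in 4 of 17 alternatives. PSMB2 rose from 17911 ± 425 to 24101 ± 669 (SD, n = 3), with log2 fold change 0.43, standard error 0.058, limma adjusted p = 0.000526, and did not rest on that library, since the value without it was 0.44. PSMB1 rose with a log2 fold change of 0.33 (limma adjusted p = 0.00717, and 0.25 without si-CTRL replicate 1). Like PSMB3, it lost its call under equal totals and quantiles, where it was at 0.20 and 0.18, while PSMB2 and PSMB4 stayed called.

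The catalytic subunits were read as constitutive genes with their inducible counterparts. PSMB5 and PSMB6 rose, PSMB7 was not called, and none of PSMB8, PSMB9 and PSMB10 was called in either direction. PSMB5, the chymotrypsin-like subunit (chromosome 14 from 23495060 to 23504429, hg19), had 14199, 18059 and 17702 normalized counts in si-CTRL replicates 1 to 3 and 23414, 23222 and 23909 in si-NEK2 replicates 1 to 3. It rose from 16654 ± 2133 to 23515 ± 354 (SD, n = 3), with log2 fold change 0.51, standard error 0.093, limma adjusted p = 0.00254 and 0.40 without si-CTRL replicate 1. An overlapping row of DAD1 had 73.2% of its mean, and whether reads were counted by strand is not given in the sources used here. PSMB6, the caspase-like subunit (chromosome 17 from 4699439 to 4701797, hg19), had 10805, 12117 and 11490 normalized counts in si-CTRL replicates 1 to 3 and 15430, 15737 and 16780 in si-NEK2 replicates 1 to 3. All si-NEK2 libraries were above all si-CTRL libraries (log2 fold change 0.48, standard error 0.068, limma adjusted p = 0.000668). PSMB7, the trypsin-like subunit (chromosome 9 from 127115745 to 127177752, hg19), had 13030, 16499 and 15937 normalized counts in si-CTRL replicates 1 to 3 and 16213, 15478 and 17227 in si-NEK2 replicates 1 to 3. Its groups overlapped (log2 fold change 0.11, standard error 0.095, limma adjusted p = 0.376), and the sign turned under equal totals (-0.016) and quantiles (-0.028). The log2 fold change was 0.0066 without si-CTRL replicate 1.

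PSMB8, which takes the place of PSMB5 (chromosome 6 from 32808501 to 32812712, hg19), had 2482, 3254 and 3392 normalized counts in si-CTRL replicates 1 to 3 and 3198, 3239 and 3161 in si-NEK2 replicates 1 to 3. Its libraries overlapped between the groups (log2 fold change 0.086, standard error 0.11, limma adjusted p = 0.576), and the sign turned under equal totals (-0.043) and without si-CTRL replicate 1 (-0.054). PSMB9, which takes the place of PSMB6 (chromosome 6 from 32821925 to 32827628, hg19), had 669, 1110 and 939 normalized counts in si-CTRL replicates 1 to 3 and 890.4, 812 and 842 in si-NEK2 replicates 1 to 3. The si-CTRL libraries spanned the si-NEK2 libraries (log2 fold change -0.065, standard error 0.16, limma adjusted p = 0.779). PSMB10, which takes the place of PSMB7 (chromosome 16 from 67968408 to 67970780, hg19), had 684, 987 and 960.2 normalized counts in si-CTRL replicates 1 to 3 and 861, 858 and 685 in si-NEK2 replicates 1 to 3. These groups overlapped too (log2 fold change -0.12, standard error 0.16, limma adjusted p = 0.573). Without si-CTRL replicate 1, PSMB9 and PSMB10 were called lower, with log2 fold changes of -0.27 and -0.29 (limma adjusted p = 0.0321 and 0.0474). PSMB9 turned to 0.097 without si-CTRL replicate 2. PSMB11, the thymus-specific subunit, was below the filter with 21, 8 and 12 reads in si-CTRL replicates 1 to 3 and 2, 3 and 0 reads in si-NEK2 replicates 1 to 3, and was not tested.

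Per kilobase of the principal transcript, the constitutive subunits were far above the inducible ones in si-CTRL cells. The mean level was 12870 normalized counts per kilobase for PSMB5 and 2707 for PSMB8, 13463 for PSMB6 and 1159 for PSMB9, and 15464 for PSMB7 and 720.0 for PSMB10. The ratio of the inducible to the constitutive count within a library does not depend on the scaling between libraries. PSMB8 stood at 17.5%, 18.0% and 19.2% of PSMB5 in si-CTRL replicates 1 to 3 and at 13.7%, 13.9% and 13.2% in si-NEK2 replicates 1 to 3. The groups did not overlap, with a difference of -0.42 in the log2 ratio (exact two-sided permutation p = 0.1, the smallest that 3 against 3 libraries allow, 0.15 adjusted over the 3 pairs). PSMB9 stood at 6.19%, 9.16% and 8.18% of PSMB6 in si-CTRL and at 5.77%, 5.16% and 5.02% in si-NEK2. Here too the groups did not overlap, although si-CTRL replicate 1 came close to si-NEK2 (difference -0.54, exact permutation p = 0.1, adjusted 0.15). PSMB10 stood at 5.25%, 5.98% and 6.03% of PSMB7 in si-CTRL and at 5.31%, 5.54% and 3.98% in si-NEK2, and these groups overlapped (difference -0.23, exact permutation p = 0.3). Without si-NEK2 replicate 3, the lowest library, the difference was -0.082. None of these tests can pass a threshold of 0.05 in this design.

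**Figure D4:**
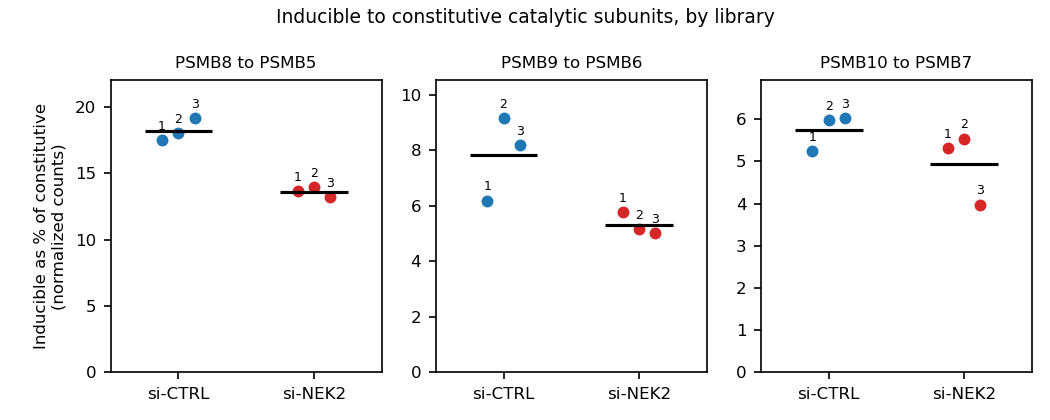
Inducible over constitutive catalytic subunit, in percent of normalized counts, for each of the 6 libraries and the 3 pairs, with group means as lines. PSMB8 to PSMB5 lies between 17.5% and 19.2% in si-CTRL and between 13.2% and 13.9% in si-NEK2, while PSMB10 to PSMB7 overlaps.

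In the 19S regulatory particle about as many genes rose as were not called. Of its 17 base and lid genes tested, 9 rose, none fell, and the median log2 fold change was 0.19 (0.22 without si-CTRL replicate 1). Among rows with a mean at least that of the lowest tested member 34.7% rose and 19.1% fell, with a median of 0.11. Under the upper quartile, equal total and quantile scalings 6, 5 and 4 of the 17 rose, and PSMD1 fell in each. Over all rows 17.5%, 13.8% and 21.1% rose under these scalings. Whether the 19S genes differed from the 20S genes was not tested, as genes are not replicates. Of the 6 ATPases that unfold the substrate, 3 rose, namely PSMC1 (0.19, limma adjusted p = 0.0278), PSMC2 (0.29, 0.0035) and PSMC6 (0.34, 0.00325). PSMC3, PSMC4 and PSMC5 were not called, at 0.15, 0.13 and 0.046. The value of PSMC5 turned below 0 under the 3 other scalings. PSMC1 has 13 named pseudogenes, so that its reads are uncertain, and it lost its call in 10 of 17 alternatives, among them the 3 other scalings, with values down to 0.054. PSMC2 lost its call in 1 alternative.

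Among the other base genes, PSMD4, an intrinsic ubiquitin receptor, rose by a log2 fold change of 0.32 (limma adjusted p = 0.0184, and 0.22 without si-CTRL replicate 1), and lost the call under the 3 other scalings. PSMD2, the scaffold that binds ubiquitin shuttle factors, was the most abundant member per kilobase, with 29219 normalized counts per kilobase in si-CTRL against 23767 for PSMA7, the next. It was not called at 0.18 (limma adjusted p = 0.0517) and turned to -0.049 under quantiles. PSMD1, the other large scaffold, had a log2 fold change of -0.15 (limma adjusted p = 0.0658), with all si-NEK2 libraries below all si-CTRL libraries, and was called lower without si-CTRL replicate 1 (-0.16). In the lid, 5 of 8 genes rose (median 0.34): PSMD14, the deubiquitinase that removes ubiquitin chains (0.39, limma adjusted p = 0.0313), and the scaffold subunits PSMD6 (0.34), PSMD11 (0.34), PSMD12 (0.34) and PSMD13 (0.36). Without si-CTRL replicate 1 the values of PSMD14 and PSMD6 were 0.23 and 0.23, and of 17 alternatives PSMD14 lost its call in 7 and PSMD6 in 5. PSMD3, PSMD7 and PSMD8 were not called, at 0.047, 0.088 and 0.14, and the first pair turned below 0 under equal totals and quantiles, PSMD3 also under the upper quartile. PSMD8 was at 0.23 and called without si-CTRL replicate 1.

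Assembly chaperones of the base and of the alpha ring were read separately. For the base, PSMD5, PSMD9 and PSMD10 are known to hold the ATPases before they join. PSMD9 had 1532, 1906 and 2018 normalized counts in si-CTRL replicates 1 to 3 and 1387, 1451 and 1277 in si-NEK2 replicates 1 to 3. It fell from 1819 ± 254 to 1372 ± 87.7 (SD, n = 3), with log2 fold change -0.40, standard error 0.11, limma adjusted p = 0.0183 and -0.52 without si-CTRL replicate 1, while PSMD5 (-0.17) and PSMD10 (0.30) were not called. PSMD9 lost its call in 5 of 17 alternatives, namely eBayes without a trend and without si-CTRL replicate 2 (-0.36), si-CTRL replicate 3 (-0.32), si-NEK2 replicate 1 (-0.41) or si-NEK2 replicate 3 (-0.35). Without si-CTRL replicate 1 PSMD5 was at -0.26 and called lower, and PSMD10 was at 0.14. For the alpha ring, PSMG1 and PSMG2 act as a pair and PSMG3 and PSMG4 as another. PSMG1 (0.30, limma adjusted p = 0.0326), PSMG2 (0.45, 0.0307) and PSMG3 (0.34, 0.0289) rose and PSMG4 was not called at 0.066. Without si-CTRL replicate 1 the values of PSMG1, PSMG2 and PSMG3 were 0.19, 0.26 and 0.21, still called, and PSMG4 turned to -0.041. None of these 4 was called under the upper quartile, equal total or quantile scaling.

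The activators, which open the gate of the core in place of the 19S particle, moved in both directions. PSME4 (PA200), a large nuclear activator known for its role in acetylated histone turnover (chromosome 2 from 54091204 to 54198139, hg19), had 1546, 1491 and 1554 normalized counts in si-CTRL replicates 1 to 3 and 2287, 2487 and 2546 in si-NEK2 replicates 1 to 3. It rose from 1530 ± 34.7 to 2440 ± 135 (SD, n = 3), with log2 fold change 0.67, standard error 0.072, limma adjusted p = 0.000171 and 0.68 without si-CTRL replicate 1. PSME3 (PA28 gamma), a nuclear activator that degrades proteins without ubiquitin (chromosome 17 from 40976443 to 40995775, hg19), had 7294, 8403 and 8434 normalized counts in si-CTRL replicates 1 to 3 and 5630, 5623 and 5613 in si-NEK2 replicates 1 to 3. All its si-NEK2 libraries were below all si-CTRL libraries (log2 fold change -0.51, standard error 0.073, limma adjusted p = 0.000673, and -0.58 without si-CTRL replicate 1). Both genes kept their call in all 17 alternatives.

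PSME1 and PSME2 encode the subunits of the cytoplasmic, interferon-inducible PA28 ring and carry the same GAAAGCGAAA match as PSMB8 and PSMB10 in the windows printed above. PSME1 (chromosome 14 from 24605367 to 24608593, hg19) had 10381, 12201 and 12273 normalized counts in si-CTRL replicates 1 to 3 and 16283, 16876 and 15884 in si-NEK2 replicates 1 to 3. It rose from 11618 ± 1072 to 16348 ± 499 (SD, n = 3), with log2 fold change 0.50, standard error 0.078, limma adjusted p = 0.00115 and 0.42 without si-CTRL replicate 1. PSME2, on a row shared with MIR7703 (chromosome 14 from 24612574 to 25167051, hg19), had 9857, 12891 and 12592 normalized counts in si-CTRL replicates 1 to 3 and 13835, 14303 and 14081 in si-NEK2 replicates 1 to 3. The groups did not overlap, but the change was not called (log2 fold change 0.27, standard error 0.10, limma adjusted p = 0.0593), while without si-CTRL replicate 1 it was called at 0.14 (limma adjusted p = 0.0197). Of the 5 members with this match, PSME1 was called with all libraries in the fit and PSME2, PSMB8, PSMB10 and PSMG4 were not, and a difference between them was not tested. The row of PSME2 overlaps 18 other tested rows, one of them with 345.5% of its mean, so that its reads are uncertain. PSMF1 (PI31), known as an inhibitor of the isolated core (chromosome 20 from 1093872 to 1152889, hg19), had 5178, 3836 and 3534 normalized counts in si-CTRL replicates 1 to 3 and 3754, 3847 and 4135 in si-NEK2 replicates 1 to 3. Its highest value was in si-CTRL replicate 1, and it was not called (log2 fold change -0.078, standard error 0.13, limma adjusted p = 0.665), with 0.086 without that library.

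**Figure D5:**
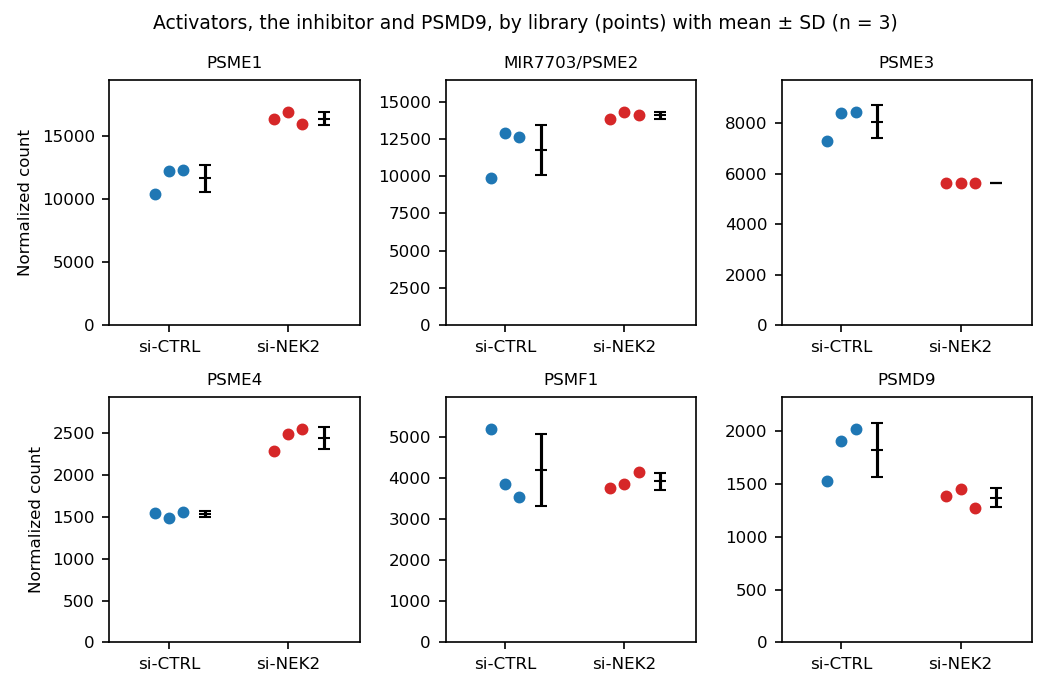
Normalized counts of PSME1, PSME2, PSME3, PSME4, PSMF1 and the assembly chaperone PSMD9 in each of the 6 libraries, with the mean and SD of each group (linear axes from 0). PSME4 is higher (means 1530 and 2440) and PSME3 lower (means 8044 and 5622) in every si-NEK2 library than in every si-CTRL library.

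The change of members was also set beside the motifs searched in their promoters. The 15 members with TGACNNNGC had a median log2 fold change of 0.27, with 8 of 15 called in either direction, and the 24 tested members with a promoter but without it had 0.30, with 15 of 24 called, where 43.1% of all rows were called. Among rows with a mean at least that of the lowest tested member, the share was higher: 34.7% rose and 19.1% fell. The 19 tested members with CCAAT had a median of 0.30 and the other 20 had 0.20, and 12 and 11 were called. The 7 members with the interferon-stimulated core had 0.27, with 3 called, and the other 32 had 0.30, with 20 called. These medians carry no test.

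The other genes of the pathway were read from 4 lists, of which all 43 genes had a tested row: 14 rose and 4 fell, and the median over the lists was 0.14 (log2 fold change). Among the rows with a mean at least that of the lowest tested member 34.7% rose and 19.1% fell, with a median of 0.11, so that these counts and this median were near the background for higher genes. Under equal totals 8 rose and 8 fell, where 13.8% of all rows rose and 28.1% fell. Without si-CTRL replicate 1 there were 21 that rose and 5 that fell, where 26.7% of all rows rose and 23.2% fell. Among the 12 partners of the proteasome, 5 rose and 1 fell. POMP, the maturation factor of the 20S core, had 7237, 10075 and 10162 normalized counts in si-CTRL replicates 1 to 3 and 13071, 13361 and 11952 in si-NEK2 replicates 1 to 3. Its groups did not overlap and it rose (log2 fold change 0.50, standard error 0.13, limma adjusted p = 0.0121, and 0.34 without si-CTRL replicate 1). USP14 (0.38), a deubiquitinase of the base, TXNL1 (0.25) and AKIRIN2 (0.39), which imports proteasomes into the nucleus, rose as well. So did ZFAND5 (0.41, and 0.25 without si-CTRL replicate 1), an activator of the particle, and PSME3IP1 (FAM192A), the partner of PSME3, fell (-0.27). With a library left out, USP14 and AKIRIN2 kept their call in each fit, and TXNL1 only without si-CTRL replicate 1. POMP lost its call without si-NEK2 replicate 2, and ZFAND5 without si-NEK2 replicate 1 or 2. PSME3IP1 lost its call without si-CTRL replicate 3 or any si-NEK2 library. ADRM1, a ubiquitin receptor, had 16198, 15983 and 15568 normalized counts in si-CTRL replicates 1 to 3 and 16918, 15141 and 14120 in si-NEK2 replicates 1 to 3 and was not called (log2 fold change -0.052, standard error 0.076, limma adjusted p = 0.613).

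Of the 10 genes around NFE2L1, 2 rose, 2 fell and 6 were not called. NFE2L1 itself had 10557, 6874 and 7355 normalized counts in si-CTRL replicates 1 to 3 and 8350, 8385 and 9497 in si-NEK2 replicates 1 to 3. Its groups were not called apart (log2 fold change 0.11, standard error 0.15, limma adjusted p = 0.597), and the sign turned under equal totals (-0.023), under quantiles (-0.0033) and without si-CTRL replicate 2 (-0.014). The highest value was in si-CTRL replicate 1, and without that library NFE2L1 was called higher (0.30, limma adjusted p = 0.00446). VCP, the ATPase that extracts NFE2L1 from the endoplasmic reticulum, had 23932, 29582 and 29255 normalized counts in si-CTRL replicates 1 to 3 and 40755, 42439 and 42499 in si-NEK2 replicates 1 to 3. It rose (log2 fold change 0.61, standard error 0.087, limma adjusted p = 0.00071), as did NGLY1 (0.49), which removes glycans from NFE2L1. NFE2L3, a factor related to NFE2L1, had 23274, 18000 and 20236 normalized counts in si-CTRL replicates 1 to 3 and 12631, 13036 and 14024 in si-NEK2 replicates 1 to 3. It fell (log2 fold change -0.63, standard error 0.10, limma adjusted p = 0.000973). MAFF, a small MAF protein that pairs with such factors, had 3737, 3117 and 3723 normalized counts in si-CTRL replicates 1 to 3 and 1410, 1441 and 1466 in si-NEK2 replicates 1 to 3. It fell most of all 43 genes (log2 fold change -1.29, standard error 0.086, limma adjusted p = 1.78e-05).

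Of the 13 genes of ubiquitin and its delivery, 6 rose and none fell. RPS27A, which encodes ubiquitin fused to a ribosomal protein, had 24189, 44402 and 40948 normalized counts in si-CTRL replicates 1 to 3 and 56345, 59453 and 49851 in si-NEK2 replicates 1 to 3. It rose (log2 fold change 0.64, standard error 0.20, limma adjusted p = 0.0296), but by 0.37 without si-CTRL replicate 1 (limma adjusted p = 0.00245), and it lost its call in 6 of 17 alternatives. UBB (0.23), which encodes a chain of ubiquitin units, the shuttle factor UBQLN2 (0.33) and the VCP cofactor NPLOC4 (0.46) were among the others that rose. UBB lost its call without si-NEK2 replicate 2 or 3. Of the 8 genes of interferon signalling and peptide loading, 1 rose (IRF9, on a row shared with RNF31, 0.21) and 1 fell (TAP2, on a row shared with HLA-DOB, -0.45). With a library left out, IRF9 kept its call only without si-CTRL replicate 1, while TAP2 kept its call in each fit. IRF1, a factor that is known to raise the inducible subunits, had 1170, 1008 and 926 normalized counts in si-CTRL replicates 1 to 3 and 856, 922 and 813 in si-NEK2 replicates 1 to 3. All si-NEK2 libraries were below all si-CTRL libraries, but the change was not called (log2 fold change -0.26, standard error 0.10, limma adjusted p = 0.0782).

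Reads of some members are uncertain. Of the 45 tested members, 18 overlap another tested row and 11 have named pseudogenes, 28 in all. The 21 members with 1 symbol, no named pseudogene and no overlapping row were a choice made after seeing the data. They held 11 that rose and both that fell, PSMD9 and PSME3, with a median log2 fold change of 0.29. Among rows with a mean at least that of the lowest tested member 34.7% rose and 19.1% fell.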

How the data were processed

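Cells were grouped by the sample records. The authors deposited a signal for each gene and library, which is its read number after division by a size factor from DESeq2, for genes of FAST DB placed on hg19, with 1 column per replicate. The submitters' processing notes name STAR 2.4.0, SAMtools, Picard, FastQC and DESeq2. The libraries came from a stranded kit, while the counter and its use of strand are not given in the sources used here. In 100% of cases a signal came to whole reads (tolerance 0.01), so that reads, and with them the depth of 52625492 to 87454509 per library, could be recovered.

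The members and all lists were chosen with earlier results of these data known. Rows that reached a mean of 10 normalized counts were put on the log2(value + 1) scale and tested with limma 3.58.1 (R 4.3.3), using lmFit, then eBayes and its intensity trend, with Benjamini-Hochberg adjustment over all 18717 rows. The pseudocount of 1 understates the change of low genes. Ratios of subunits were tested with an exact permutation test over libraries (scipy 1.17.1). Values in every library are given for NEK2, the catalytic subunits, the activators, PSMF1, members past both thresholds of the study, and the 10 members with the largest absolute log2 fold change among those with a mean of at least 50, and of the companion lists for those past both thresholds plus NFE2L1, POMP, ADRM1 and IRF1. Some genes of the lists are counted but not reported here. Alternatives tried were no filter, a mean of at least 50, pseudocounts of 0.1 and 5, 3 other scalings, a replicate block, eBayes with no trend, the omission of each library, and edgeR 4.0.16 and DESeq2 1.42.0 on the recovered reads. On data simulated for this comparison with 18717 rows, limma recovered 1.49% of genes changed 1.2-fold, 50.7% of those changed 1.5-fold and 72.7% of those changed 2-fold, and called 0.0324% of the unchanged genes. The simulation changed 67, 67 and 66 rows of any level by these folds, far fewer than the 43.1% of rows called in the data. Its recovery therefore does not give the recovery for the members. Transcript lengths came from GENCODE and promoters from RefSeq, matched by symbol, and no coordinates were converted between builds.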

Additional observations from a re-analysis of the deposited data

How the results depend on the processing

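Equal totals and quantile normalization lowered the count of members that rose from 25 to 15 and 14 and the median from 0.30 to 0.17 and 0.18. Equal totals and eBayes without a trend gave 4 and 1 members that fell in place of 2, and eBayes without a trend gave 16 that rose. Without a trend 18.5% of all rows rose and 19.9% fell. Why the trend matters was not tested. In the companion lists, 8 and 7 genes rose in place of 14 under equal totals and quantile normalization, and 8 fell in place of 4 under equal totals. The 21 members without shared reads, chosen after seeing the data, held 11 that rose, as fewer genes were counted, and both that fell. edgeR and DESeq2 on the recovered reads each called 25 members higher and 3 lower. Of all rows edgeR called 20.8% higher and 21.9% lower, and DESeq2 called 21.5% higher and 22.4% lower.

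With each library left out in turn, 16 to 28 members rose (16 without si-NEK2 replicate 1), 1 to 6 fell, 1 to 6 were past both thresholds of the study (1 when si-CTRL replicate 1 was left out, 6 for si-CTRL replicate 2 and 5 for si-CTRL replicate 3), and 34 to 39 had groups that did not overlap. The median ran from 0.21 to 0.34. Over all rows, 15.1% to 26.7% rose and 16.5% to 23.2% fell in these fits. Groups separate more easily when 1 of them holds 2 libraries. Shares over all rows were not computed for separation or for both thresholds with a library left out. In the companion lists 8 to 21 genes rose and 3 to 5 fell. Same-numbered samples did not deviate together (r = -0.091, 0.0469 and -0.147), so that the replicate numbers are taken as names. A replicate block gave 23 members that rose and 2 that fell, where 18.3% of all rows rose and 18.5% fell.

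The following signs turned, all of them for genes that were not called. Under equal totals the log2 fold change was -0.023 for NFE2L1, -0.016 for PSMB7, -0.043 for PSMB8, -0.082 for PSMC5, -0.081 for PSMD3, -0.040 for PSMD7 and -0.062 for PSMG4. Under quantile normalization it was -0.0033 for NFE2L1, -0.028 for PSMB7, -0.099 for PSMC5, -0.049 for PSMD2, -0.081 for PSMD3 and -0.074 for PSMD7. Under the upper quartile it was -0.020 for PSMC5 and -0.019 for PSMD3. With each library left out, the range was -0.014 (without si-CTRL replicate 1) to 0.43 for PSMA7, -0.055 (the same library) to 0.17 for PSMB8, -0.19 to 0.086 (the same library) for PSMF1, -0.041 (the same library) to 0.19 for PSMG4, which also turned to -0.024 without si-NEK2 replicate 1, -0.27 to 0.097 (without si-CTRL replicate 2) for PSMB9, -0.014 (without si-CTRL replicate 2) to 0.30 for NFE2L1, and -0.12 to 0.0082 (without si-NEK2 replicate 3) for ADRM1. Of 765 values of members under the 17 alternatives, 657 kept their sign and their call, 71 lost a call, 18 gained one and 19 turned. The causes were not tested. Apart from PSMA2 and PSME4, every member called in the reported fit changed by under 1.5-fold, and some of these calls were lost under an alternative.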
